A study of Mus musculus with 6 samples.

Results

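The genes described here are 10 markers of the inner retina that were measured in single cells of CD31-enriched suspensions: Trpm1, Pcp2, Prkca and Gabrr2, which mark bipolar cells; Gad1, Slc32a1, Slc6a9 and Tfap2b, which mark amacrine cells; Isl1, which is shared by ON bipolar cells, starburst amacrine cells and ganglion cells; and Rbpms, a ganglion cell marker. They were chosen by name, and all 10 are among the 20822 genes of the count table. Cells came from P14 retinas of C57BL/6J mice (eNOS+/+) and of mice lacking endothelial nitric oxide synthase (eNOS-/-), and both genotypes went through oxygen-induced retinopathy (OIR), with 75% oxygen from P7 to P12. Each genotype had 3 replicates, and each replicate pooled 3 to 5 retinas, so that values of single animals cannot be read. The knockout was present in every cell of the animal and was not restricted to endothelial cells (ECs).

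Bipolar cells carry the signal of the photoreceptors to the inner retina, amacrine cells modulate it there with GABA or glycine, and ganglion cells send it to the brain. ON bipolar cells answer light through the glutamate receptor Grm6, whose G protein closes the cation channel Trpm1 in the dark, while OFF bipolar cells use ionotropic glutamate receptors. Rod bipolar cells are ON cells and are the bipolar cells rich in protein kinase C alpha, the product of Prkca. The annotation deposited with the counts puts such cells under a single name, Neurons, and the question addressed here was which of these classes the name holds.

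The table held 8944 cells and 10361314 unique molecular identifiers (UMIs, each counting 1 captured transcript). Of these, 690 cells with 562286 UMIs (median 579 per cell) were annotated as Neurons, and the other cells were 5925 ECs of 3 subtypes, 1508 Rods, 216 Immune, 214 Mural, 184 Neuroglia, 157 Optc+ cells and 50 Cones. The Neurons were unevenly spread, with 59, 11 and 100 cells in eNOS+/+ replicates 1 to 3 and 97, 413 and 10 cells in eNOS-/- replicates 1 to 3. Their sums in eNOS+/+ replicate 2 and eNOS-/- replicate 3 were only 5178 and 5975 UMIs, and levels there, in counts per 1000000 UMIs (CPM), rest on few UMIs. In the 10 Neurons of eNOS-/- replicate 3, the 9 mural genes summed to 6360 CPM, against 0 to 376 CPM in the other replicates. Some barcodes share the first 11 of 12 bases within a replicate, and 515 of the 690 Neurons were the deepest cell, of any type, of such a barcode family. Counts of cells by cluster and class, and some counts of gene pairs, are also given for these 515 cells, written as 1 cell per barcode family. The other pair counts are given for all cells only and were not checked for such families. No barcode of a Neuron was shared between replicates, but in another column of the annotation the 613 cells of eNOS+/+ replicate 2 carry the name of another library. Nos3, the targeted gene, was measured in ECs at 19.4, 36.6 and 23.6 CPM in eNOS+/+ and at 21.2, 16.1 and 32.8 CPM in eNOS-/- replicates, ranges that overlap, so the counts do not check the genotype labels.

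Bipolar genes led the Neurons. Trpm1, the transduction channel of ON bipolar cells (chr7:64153835-64269775 of GRCm38), was measured at 5332, 2317 and 5421 CPM in eNOS+/+ replicates 1 to 3 and at 8281, 6129 and 4351 CPM in eNOS-/- replicates 1 to 3. The lowest value was that of the 11 cells of eNOS+/+ replicate 2, and its mean over the replicates was 5305 ± 1969 CPM (SD, n = 6). At least 1 UMI of Trpm1 was found in 421 of the 690 cells (61.0%, 95% Wilson interval 57.3 to 64.6). When UMIs were drawn at random until every cell held 500, a step that only 392 cells were deep enough for, the share was 67.1%.

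Isl1, a LIM-homeodomain transcription factor needed for the differentiation of bipolar cells (chr13:116298281-116309689), varied least among the 4 abundant genes, with 3140, 2897 and 2691 CPM in the eNOS+/+ replicates and 3169, 2655 and 2176 CPM in the eNOS-/- replicates (2788 ± 370 CPM, SD, n = 6). Pcp2, a modulator of G proteins found in rod bipolar cells (chr8:3623371-3625545), was measured at 2073, 966 and 1484 CPM and at 1249, 1144 and 2510 CPM (1571 ± 599 CPM, SD, n = 6). Its locus overlaps Pet100 on the other strand, a gene with 1017 UMIs in the table, and whether the counting used strand is not given in the sources used here. Prkca (chr11:107933387-108343928) was measured at 1323, 579 and 1088 CPM and at 1284, 594 and 2510 CPM (1230 ± 707 CPM, SD, n = 6). The 2510 CPM of both Pcp2 and Prkca stood on 15 UMIs each, in the 10 Neurons of eNOS-/- replicate 3. Gabrr2, a subunit of the ionotropic GABA receptors on bipolar cells (chr4:33062999-33095865), was low, with 79.0, 0 and 178 CPM and 159, 77.4 and 0 CPM, and its 2 values of 0 were in the 2 replicates of few UMIs.

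The amacrine genes were found at far fewer UMIs and mostly in eNOS-/- replicate 2, which held 413 of the 690 cells. Tfap2b, a transcription factor of amacrine and horizontal cells (chr1:19208914-19238576), had 101 UMIs in 31 cells, at 0, 0 and 39.6 CPM in eNOS+/+ and 170, 232 and 0 CPM in eNOS-/- replicates. All 26 UMIs of Slc32a1, the vesicular transporter of GABA and glycine (chr2:158610767-158615748), and all 7 UMIs of Gad1, an enzyme of GABA synthesis (chr2:70553072-70602014), came from eNOS-/- replicate 2, in 15 and 4 cells. Slc6a9, the glycine transporter GlyT1 (chr4:117834506-117875198), had 2 UMIs in eNOS-/- replicate 1 and 4 in eNOS-/- replicate 2, in 5 cells. It overlaps Ccdc24 and B4galt2 on the other strand. In eNOS+/+ replicates 1 and 3 a count of 0 still allows 59.2 and 59.4 CPM. The highest eNOS-/- values of Gad1 (19.3 CPM) and Slc6a9 (22.7 CPM) lay below these limits, so a difference between genotypes was not detectable for them at this depth. The 71.8 CPM of Slc32a1 in eNOS-/- replicate 2 lay above both limits, but the other 2 eNOS-/- replicates were at 0 as well. With 1 cell per barcode family, Tfap2b was found in 19 cells, Slc32a1 in 11, Slc6a9 in 3 and Gad1 in 2.

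Rbpms, an RNA-binding protein gene used as a marker of ganglion cells (chr8:33782643-33929863), had 17 UMIs in 12 Neurons. It was at 98.7, 193 and 19.8 CPM in eNOS+/+ and at 11.4, 24.9 and 0 CPM in eNOS-/- replicates, and the 193 CPM of eNOS+/+ replicate 2 stood on 1 UMI. Gene models on either strand overlap it (Gm26632 and Gm26978, with 10 and 2 UMIs in the table).

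**Figure D1:**
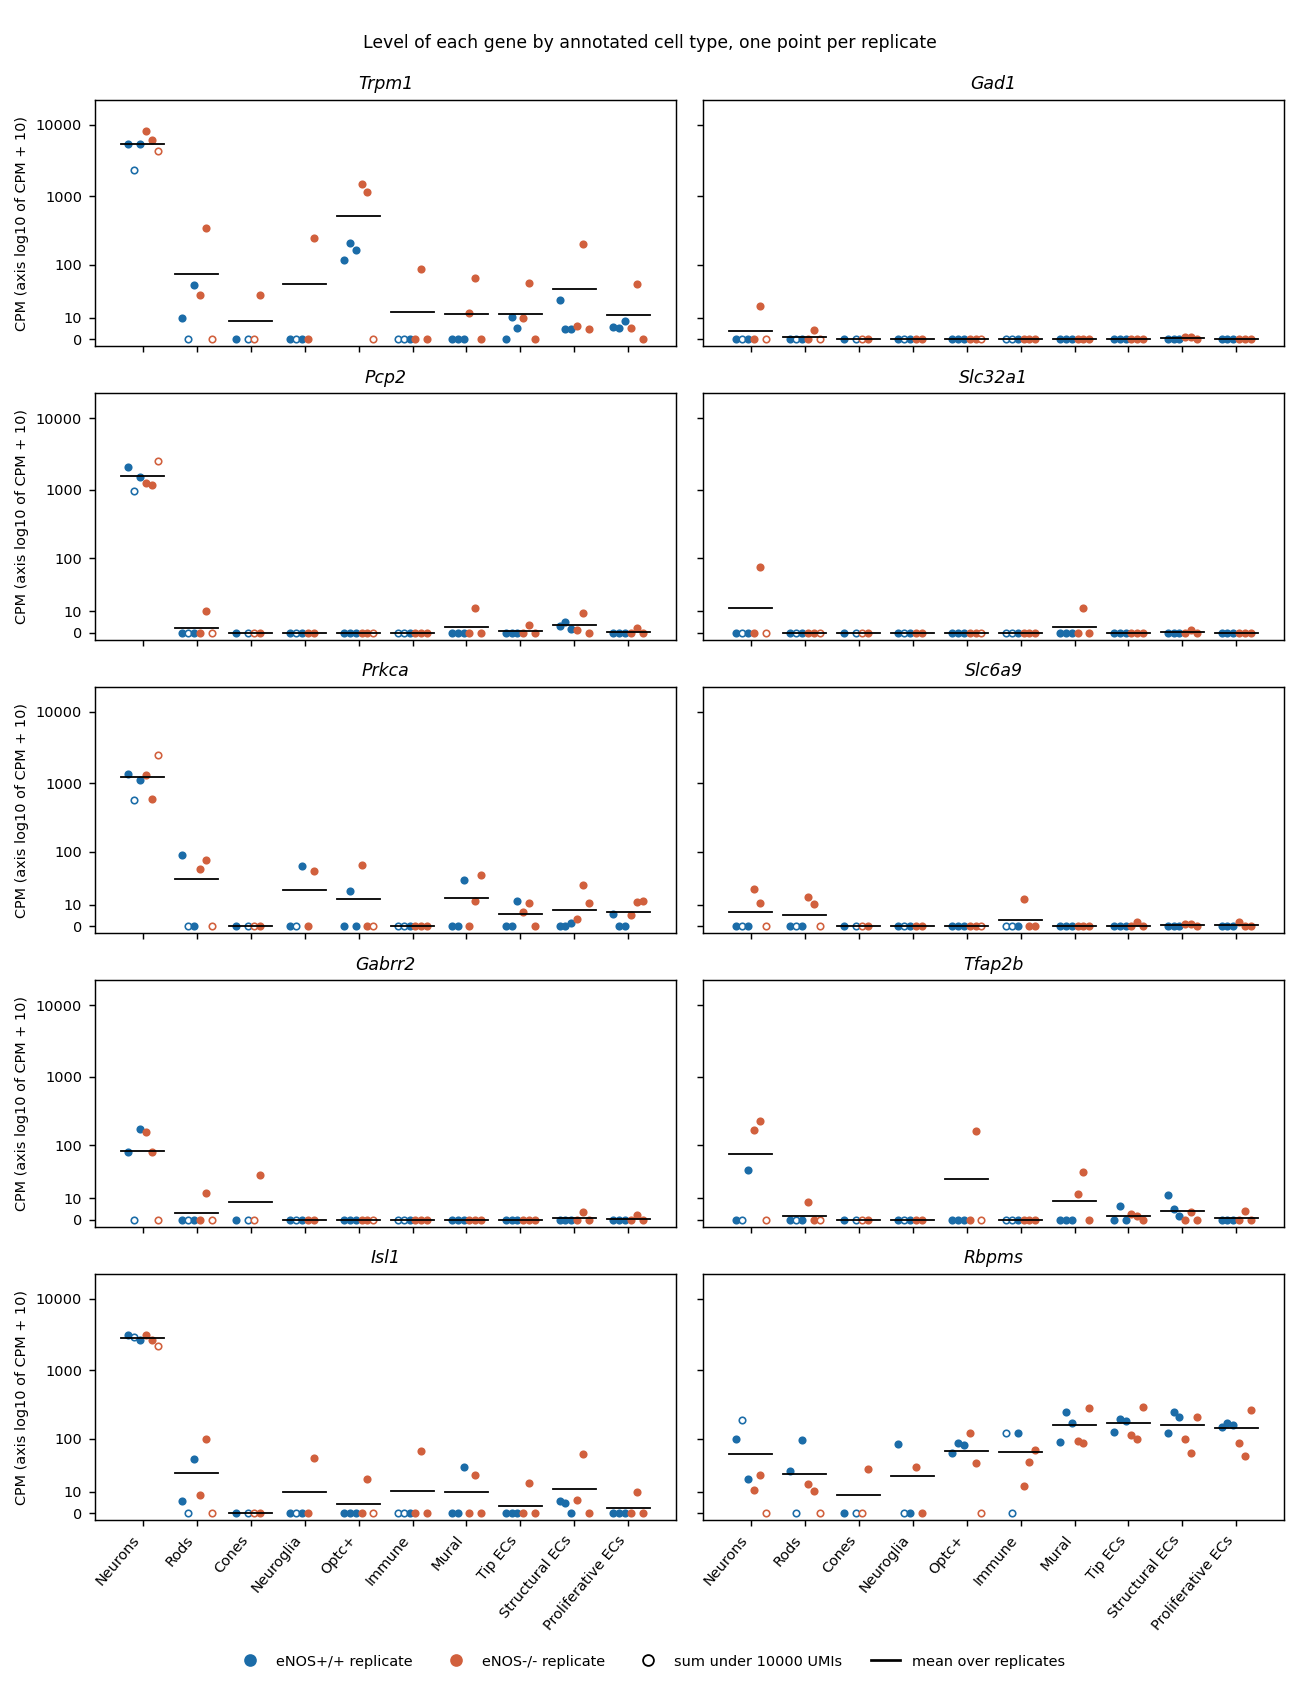
Level of each of the 10 genes in CPM (axis spaced as log10 of CPM + 10) in each annotated cell type, with 1 point per replicate, open points for sums under 10000 UMIs and a bar for the mean over replicates. Trpm1, Pcp2, Prkca and Isl1 stood highest in Neurons in every replicate, and Rbpms was spread over Mural cells and the 3 EC subtypes.

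Upstream sequence of the members is shown because the bipolar genes were found in the same cells, as described below, and because Trpm1 has more than 1 start. RefSeq (GRCm38.p6) lists 15 starts for 9 of the 10 genes, and for each the 250 bases before the start were searched on both strands for TAATCC, which reads as GGATTA on the other strand and is known to be bound by the homeodomain factors Crx and Otx2, and for CATGTG, which reads as CACATG on the other strand and is a form of the E-box of basic helix-loop-helix factors. No matches overlapped in the sequences shown. TAATCC or its complement was found once each in Trpm1, Isl1, Gabrr2 and Gad1. These were 4 of the 15 sequences searched, beside 6.25% of 32851 promoters of all genes. CATGTG was found in Trpm1 and Pcp2, in 2 of the 15 sequences, beside 12.3% of the promoters of all genes. Capitals mark the matches in the sequences below, each written 5′ to 3′ on the strand of its gene, and a match is a description of the letters and not of binding.
Trpm1 first start, chr7:64153585-64153834, plus strand: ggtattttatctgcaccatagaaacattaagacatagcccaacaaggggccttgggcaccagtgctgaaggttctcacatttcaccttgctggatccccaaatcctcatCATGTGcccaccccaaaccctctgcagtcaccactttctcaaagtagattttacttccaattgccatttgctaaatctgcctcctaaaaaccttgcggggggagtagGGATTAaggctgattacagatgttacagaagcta
Trpm1 second start, chr7:64185209-64185458, plus strand: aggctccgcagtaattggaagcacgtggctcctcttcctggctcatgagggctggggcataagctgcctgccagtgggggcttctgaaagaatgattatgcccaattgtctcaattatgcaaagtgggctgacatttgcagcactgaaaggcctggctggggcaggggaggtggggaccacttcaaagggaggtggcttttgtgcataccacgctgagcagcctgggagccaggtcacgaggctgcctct
Isl1, chr13:116309689-116309938, minus strand: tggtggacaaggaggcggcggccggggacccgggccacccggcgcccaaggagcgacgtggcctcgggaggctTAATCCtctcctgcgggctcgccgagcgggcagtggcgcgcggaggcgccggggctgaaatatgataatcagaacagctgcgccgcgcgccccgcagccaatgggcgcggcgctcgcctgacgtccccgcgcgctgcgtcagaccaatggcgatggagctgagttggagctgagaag
Gabrr2, chr4:33062862-33063111, plus strand: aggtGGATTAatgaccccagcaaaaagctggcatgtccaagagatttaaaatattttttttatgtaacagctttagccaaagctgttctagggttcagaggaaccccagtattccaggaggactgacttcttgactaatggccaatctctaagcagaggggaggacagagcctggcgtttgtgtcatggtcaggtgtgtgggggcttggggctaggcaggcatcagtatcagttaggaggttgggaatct
Pcp2 first listed start, chr8:3625037-3625286, minus strand: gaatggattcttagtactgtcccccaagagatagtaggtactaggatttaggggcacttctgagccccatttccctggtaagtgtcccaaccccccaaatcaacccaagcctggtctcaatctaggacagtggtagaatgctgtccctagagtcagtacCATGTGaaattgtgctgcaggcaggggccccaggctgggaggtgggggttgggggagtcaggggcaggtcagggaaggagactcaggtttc
Gad1, chr2:70561879-70562128, plus strand: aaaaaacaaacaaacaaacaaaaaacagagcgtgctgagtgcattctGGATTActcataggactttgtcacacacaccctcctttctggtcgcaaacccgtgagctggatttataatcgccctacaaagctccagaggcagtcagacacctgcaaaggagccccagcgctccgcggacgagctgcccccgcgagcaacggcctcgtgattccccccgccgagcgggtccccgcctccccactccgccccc
In Trpm1 both matches lie before the first start, at -141 for CATGTG and at -34 for the other letters, counted from the start to the first base of the match, and the second start, within the same gene, has none. The libraries read the 3′ end of transcripts, so the UMIs of Trpm1 do not tell its starts apart. The letters were thus found before bipolar members and before an amacrine member, Gad1, which was detected in none of the Neurons with a bipolar gene.

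Across the 10 annotated cell types, summed over replicates, Neurons ranked first for 9 of the 10 genes. They held 97.2% of all Pcp2 UMIs, 92.9% of those of Slc32a1, 92.2% of Isl1, 85.9% of Gabrr2, 85.6% of Trpm1, 78.7% of Prkca, 78.3% of Tfap2b, 70.0% of Gad1 and 37.5% of Slc6a9. Since the annotation was made from the same counts, these ranks describe the labels and were not tested. The next cell type for Pcp2 was Rods at 4.57 CPM (3 UMIs), against 1288 CPM over all Neurons. Isl1 and Prkca were also next in Rods, at 48.8 and 71.6 CPM. For Slc6a9 the order is not firm, because 6 UMIs in Neurons (10.7 CPM) stand beside 5 UMIs in Rods (7.62 CPM), and for Gabrr2, Gad1 and Slc32a1 the next cell type held a single UMI.

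Low counts of Trpm1 and Isl1 outside Neurons came mainly from the replicate that held most Neurons. In eNOS-/- replicate 2, Trpm1 was at 159 CPM over all cells other than Neurons, against 1.64 to 24.8 CPM in the other 5 replicates. That replicate gave 80.0% of the Trpm1 UMIs and 90.2% of the Isl1 UMIs outside Neurons. It also held the most cells other than Neurons, 3297 against 405 to 1691. Prkca followed this less, with 56.7% of its UMIs outside Neurons from that replicate (24.1 CPM, against 17.2 CPM in eNOS+/+ replicate 1). In Rods, Prkca was higher in eNOS+/+ replicate 1 (88.8 CPM) than in eNOS-/- replicate 2 (74.7 CPM). In ECs, 349 of 5925 cells (5.89%) had a UMI of a bipolar gene or Isl1 and 31 had UMIs of at least 2 of these 5 genes, while in Neurons 499 cells (72.3%) had at least 1 and 378 had at least 2. The median depth was 682 UMIs in ECs and 579 in Neurons. In Rods, with a median of 361 UMIs, the numbers were 126 of 1508 cells (8.36%) and 13. Trpm1 had 3.63 UMIs for each UMI of Isl1 in ECs, 3.41 in Rods and 2.26 in Neurons.

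In other cell types the UMIs of Trpm1 for each UMI of Isl1 varied on few Isl1 UMIs. The values were 1.33 in Immune, 2 in Mural and 5 in Neuroglia cells, each on 3 Isl1 UMIs, and 6 in Proliferative ECs on 6. Optc+ cells lay far above all of these, with 130 Trpm1 UMIs and 1 Isl1 UMI. By replicate, Trpm1 was at 119, 212 and 170 CPM in eNOS+/+ and at 1460, 1151 and 0 CPM in eNOS-/- Optc+ cells, and the 0 rests on 5 cells with 3997 UMIs. Trpm1 hosts the microRNA gene Mir211 and is also expressed in pigment cells. The pigment genes Dct, Pmel, Mlana, Tyr and Tyrp1, chosen after their values were seen, were therefore counted in the same cells. UMIs of at least 2 of these 5 genes were found in 12 Optc+ cells, 10 of them from eNOS-/- replicates, and these 12 cells held 86 of the 130 Trpm1 UMIs, in 11 of the 12 cells. Among the other 145 Optc+ cells, 29 had Trpm1, with 44 UMIs. The median depth was 2286.5 UMIs in the 12 cells and 829 UMIs in the others. No UMI of Rpe65 or Ttr, genes of the retinal pigment epithelium that were also chosen after their values were seen, was found in Optc+ cells. Dct by replicate was at 59.4, 42.5 and 102 CPM in eNOS+/+ and at 3386, 16047 and 0 CPM in eNOS-/- Optc+ cells. The part of pigment cells in the Trpm1 of Optc+ cells was not tested.

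**Figure D2:**
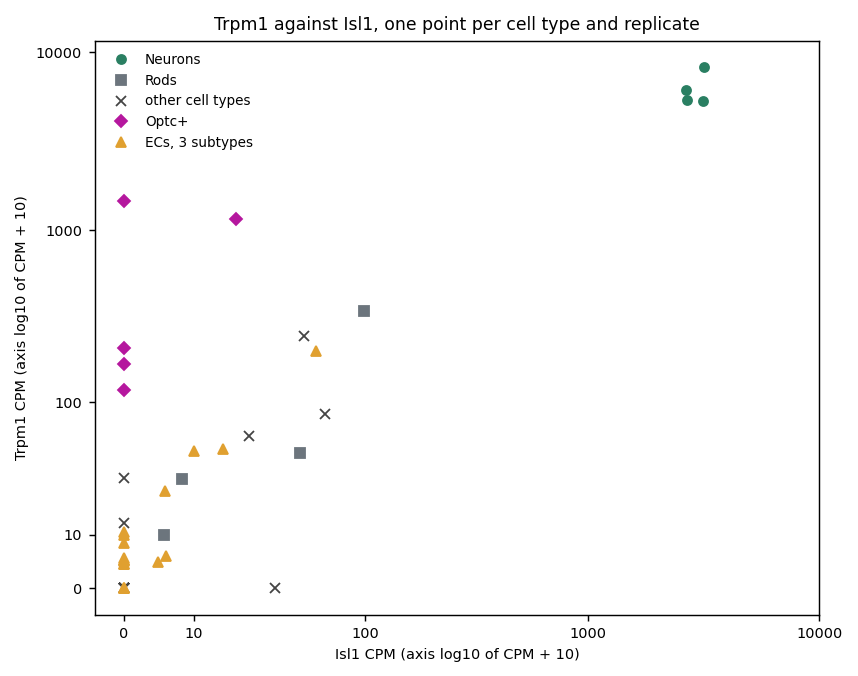
Trpm1 against Isl1 in CPM (both axes spaced as log10 of CPM + 10), with 1 point per cell type and replicate for sums of at least 10000 UMIs. The 5 Optc+ points lie at Isl1 of 0 to 20.5 CPM and at Trpm1 of 119 to 1460 CPM, the 2 highest of them, from eNOS-/- replicates, above every point of Rods and ECs, which reach 346 CPM, and the Neurons lie at upper right.

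Rbpms did not mark the Neurons. They held 1.44% of its 1179 UMIs, and at 30.2 CPM they ranked seventh of 10 cell types, while Mural cells (169 CPM), Tip ECs (145 CPM), Structural ECs (131 CPM) and Proliferative ECs (109 CPM) led. Over replicates the means were 163 ± 89.5, 171 ± 75.04, 161 ± 76.0 and 149 ± 74.6 CPM (SD, n = 6) in that order, so that these 4 neighbours did not differ beyond their spread. UMIs of Rbpms were found in 791 of 5925 ECs (13.4%) and in 40 of 214 Mural cells (18.7%), against 1.74% of Neurons (0.998 to 3.02). Rods, which should lack it, gave 13 of 1508 cells (0.862%, 0.504 to 1.47) at a median of 361 UMIs, against 579 in Neurons, and the intervals overlap. At 500 UMIs per cell, 2 of 392 Neurons (0.510%) and 6 of 421 Rods (1.43%) had it, so that over all Neurons the share was not above that background at equal depth. In cluster 21, described below, it was 4.72% (2.03 to 10.6) at a median of 539 UMIs.

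The Neurons were made of 3 clusters of the deposited annotation, numbered 7, 16 and 21, which separated the members and held 281, 173 and 61 cells with 1 cell per barcode family. Cluster 7, with 352 cells (51.0% of Neurons; median 703 UMIs), carried Trpm1 at 10261, Isl1 at 4132, Pcp2 at 2208, Prkca at 1443 and Gabrr2 at 134 CPM over its summed cells, and none of the 4 amacrine genes in 321597 UMIs. Its 10 leading genes against all other cells were Pcp2, Pcp4, Trpm1, Isl1, Car8, Gng13, Gnao1, Prkca, Sebox and Gpr179, most of them bipolar genes, and it is called bipolar-like here. Trpm1, Isl1, Pcp2 and Prkca were higher in cluster 7 than in either other cluster in each of the 6 replicates. In eNOS+/+ replicate 2, however, clusters 7, 16 and 21 held only 5, 4 and 2 cells, and in eNOS-/- replicate 3 they held 7, 1 and 2. The 1 cell of cluster 16 there had 166 UMIs, so a count of 0 says little. The clusters were made from the same counts, so this order describes them and was not tested. Trpm1 was found in 92.3% of its cells and Prkca in 57.7%.

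Cluster 16, with 232 cells (33.6%; median 438.5 UMIs), had Trpm1 at 1498 and Isl1 at 1471 CPM, Pcp2 at 94.5 CPM and Gabrr2 at 81.0 CPM. Prkca, the rod bipolar gene, had 1 UMI in 148193. Its leading genes against all other cells included Scgn, Lhx4 and Grik1, genes of cone bipolar cells, and Grik1 encodes an ionotropic glutamate receptor of OFF bipolar cells, so this cluster is also called bipolar-like. Cone genes were found there too, since all 7 of their list were highest in this cluster among the Neurons, summing to 749 CPM, against 56.0 CPM in cluster 7 and 40061 CPM in Cones. Among them Gngt2, a cone transducin subunit, was at 513 CPM in 16.8% of the cells and was among the 10 genes that led the cluster against the other Neurons. Gngt2 gave most of the list sum, with 76 UMIs. The 8 UMIs of Opn1sw and the 4 UMIs of Opn1mw each came from 1 cell, and Pde6h had 2 UMIs. Of the 13 rod genes, 7 were highest in cluster 16, with a list sum of 1903 CPM, against 1222 CPM in cluster 7 and 79421 CPM in Rods. The part of photoreceptor RNA in this cluster was not tested. Of 20 genes of bipolar fate and type, 12 were highest in cluster 7 and 8 in cluster 16. Those of cluster 16 included Scgn (783 against 18.7 CPM in cluster 7), Grik1 (472 against 74.6 CPM), Vsx1 (236 against 0 CPM) and Cabp2 (87.7 against 12.4 CPM). Those of cluster 7 included Car8 (1517 against 60.7 CPM) and Sebox (737 against 33.7 CPM). Within cluster 16, partners of Isl1 differed. Of the 86 cells with Isl1, 49 also had Trpm1, 27 had Grm6 and 5 had Grik1. Of the 146 cells without Isl1, 27.4% had Trpm1, 6.85% had Grm6 and 17.8% had Grik1. Vsx1 went with Isl1 (12 of the 86 cells, 14.0%, against 4.11% of the others), and 15 of the 18 cells with Vsx1 had Trpm1. Scgn was found at similar shares in cells with and without Isl1 (22.1% and 19.9%). A UMI of haemoglobin Hbb-bs, chosen after its values were seen, was rare except for 1 cell of cluster 16 that held 606 of its 619 UMIs.

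Cluster 21, with 106 cells (15.4%; median 539 UMIs), held 98 of the 101 Tfap2b UMIs (1060 CPM) and all UMIs of Slc32a1 (281 CPM), Gad1 (75.7 CPM) and Slc6a9 (64.9 CPM) found in Neurons. Pcp2 and Gabrr2 were not found in its 92496 UMIs. Its leading genes mixed the neurofilament genes Nefl and Nefm, which mark ganglion cells among others, with Tfap2b and the calretinin gene Calb2, and it is therefore given no cell type name. Within Neurons, all 13 ganglion genes of the table were highest in this cluster, among them Nefl (1589 CPM), Gap43 (422 CPM), Slc17a6 (173 CPM) and Pou4f1 (86.5 CPM). So were all 8 horizontal cell genes, among them Calb1 (1460 CPM) and Lhx1 (195 CPM). Calb1 was found in every cell type, with 532 CPM in ECs and 850 CPM in Cones. Sept4 of the same list was higher in Mural cells (637 CPM) than in this cluster (595 CPM), and Onecut1 stood on 1 UMI. Of the GABA genes, 5 of 6 were highest in cluster 21 among the Neurons. Of the 8 amacrine fate genes in the table, 4 were highest there, 3 in cluster 16 and 1 in cluster 7. That last gene was Prox1, at 1393 CPM in cluster 7 and 649 CPM in cluster 21. Pax6, a transcription factor that amacrine, ganglion and horizontal cells share, was among the 4, at 768 CPM against 6.22 CPM in cluster 7. It was higher still in Optc+ cells (1215 CPM) and Neuroglia (946 CPM).

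**Figure D3:**
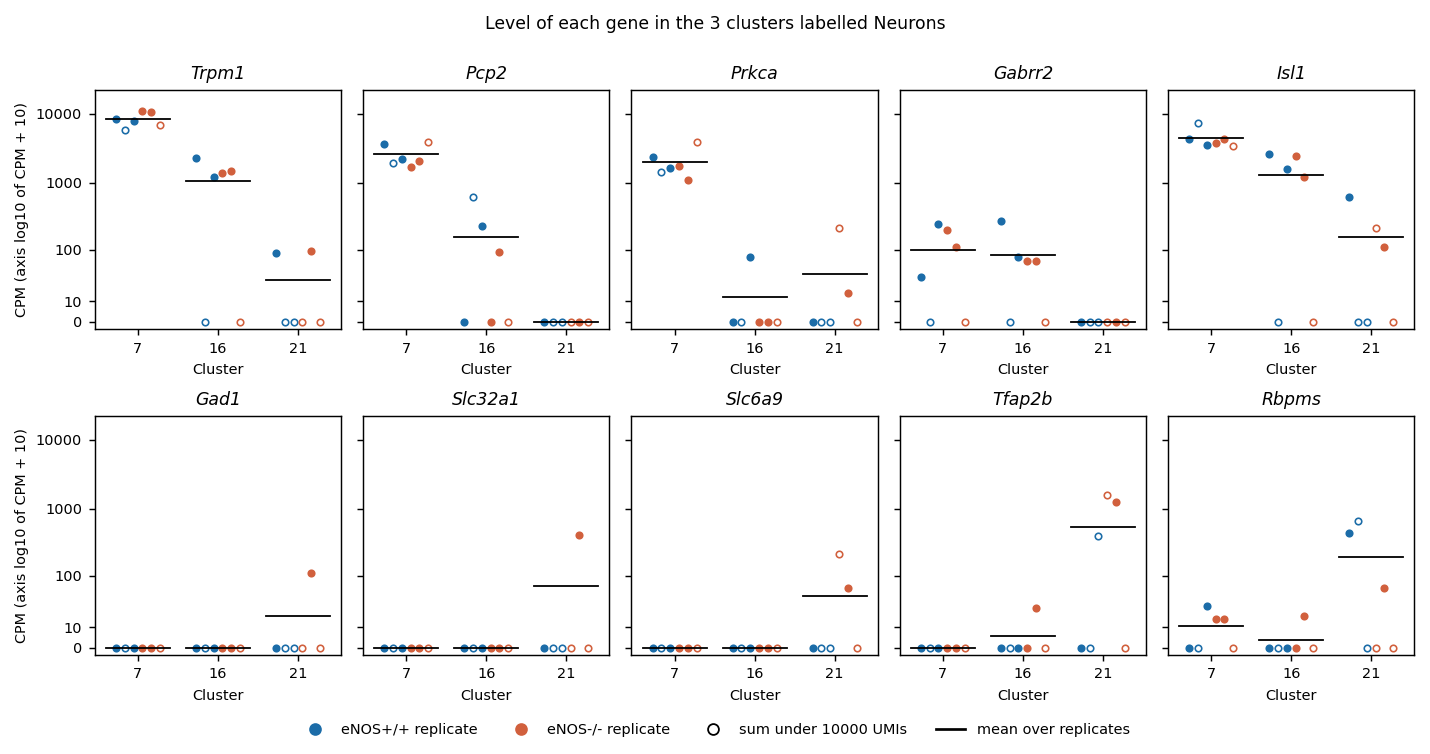
Level of each of the 10 genes in CPM (axis spaced as log10 of CPM + 10) in clusters 7, 16 and 21, with 1 point per replicate, open points for sums under 10000 UMIs and a bar for the mean over replicates. Prkca and Pcp2 lay far below their cluster 7 levels in cluster 16, where Trpm1 and Isl1 were still measured, and the 4 amacrine genes were nearly confined to cluster 21.

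In single cells the bipolar genes were found together. Of the 207 Neurons with Prkca, 198 (95.7%) also had Trpm1, and of the 258 with Pcp2, 235 (91.1%) had it, while Trpm1 was found in 61.0% of all Neurons. Most of these cells lay in cluster 7, 203 of those with Prkca and 246 of those with Pcp2. There Trpm1 was found in 92.3% of all cells, and in 97.4% of those drawn down to 500 UMIs, so these shares largely restate the cluster. Isl1 and Trpm1 were found together in 315 cells, Pcp2 and Prkca in 159. Cells drawn down to 500 UMIs gave the same picture, with Trpm1 in 108 of 112 cells with Prkca (96.4%) and in 150 of 157 with Pcp2 (95.5%), and with 1 cell per barcode family the shares were 96.6% and 92.2%. Of the 41 cells with Gabrr2, 36 had Trpm1 and 34 had Isl1.

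The bipolar and the amacrine genes were seldom found together. Of the 31 cells with Tfap2b, 3 had Trpm1, 1 had Isl1, and none had Pcp2 or Prkca. Of the 15 with Slc32a1, 3 had Trpm1 and 1 had Isl1, and of the 5 with Slc6a9, 1 had Prkca and 1 had Isl1. Within cluster 21, however, 3 of the 7 cells with Trpm1 had Tfap2b and 3 had Slc32a1, larger shares than the 27.3% and 12.1% of the cells without it. With 1 cell per barcode family, 2 of 19 cells with Tfap2b and 3 of 11 with Slc32a1 had Trpm1. Among the amacrine genes, Tfap2b was found in 7 of the 15 cells with Slc32a1, in 3 of the 5 with Slc6a9 and in 2 of the 4 with Gad1. No cell had both Gad1 and Slc6a9, which mark GABA and glycine cells, but they were found in only 4 and 5 cells. In cluster 21, 40 cells had an amacrine gene and 42 had one of the 13 ganglion genes, and 19 had both. A ganglion gene was found in 47.5% of the cells with an amacrine gene and in 34.8% of the others. Among these, Nefl was found in 7 and Nefm in 9 of the 30 cells with Tfap2b. With 5 genes of the list alone (Slc17a6, Pou4f1, Pou4f2, Nrn1 and Rbpms2), a choice made with values known, 10 cells had a ganglion gene and none of them an amacrine gene. With 1 cell per barcode family, 11 of 22 cells with an amacrine gene had 1 of the 13 and none had 1 of the 5. The horizontal cell genes Lhx1, Onecut1 or Slc4a3 were found in 22 cells, 14 of which had an amacrine gene. The 7 genes of their list other than Tfap2b were found in 58 cells, 29 of which had an amacrine gene, and Calb1 alone was found in 47 cells. Lhx1, a transcription factor of horizontal cells, was found in 9 cells, 8 of them with Tfap2b. A further 50 of the 106 cells had no amacrine gene and none of the 5 ganglion or 3 horizontal genes. By replicate, the cells with the 5 ganglion genes were 3, 0 and 1 in eNOS+/+ and 0, 6 and 0 in eNOS-/-, and those with amacrine genes 0, 0 and 2 and 6, 32 and 0.

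Rbpms was found in 5 cells of cluster 21, with 10 of its 17 UMIs. Of these 5 cells, 4 had Nefl, 4 had Gap43, 3 had the glutamate transporter Slc17a6, 1 had Slc32a1 and none had Tfap2b, while among the other 101 cells of the cluster 15.8% had Nefl, 10.9% had Gap43, 4.95% had Slc17a6 and 13.9% had Slc32a1. The other 7 cells with Rbpms lay in the bipolar-like clusters, and 6 of all 12 had Trpm1.

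**Figure D4:**
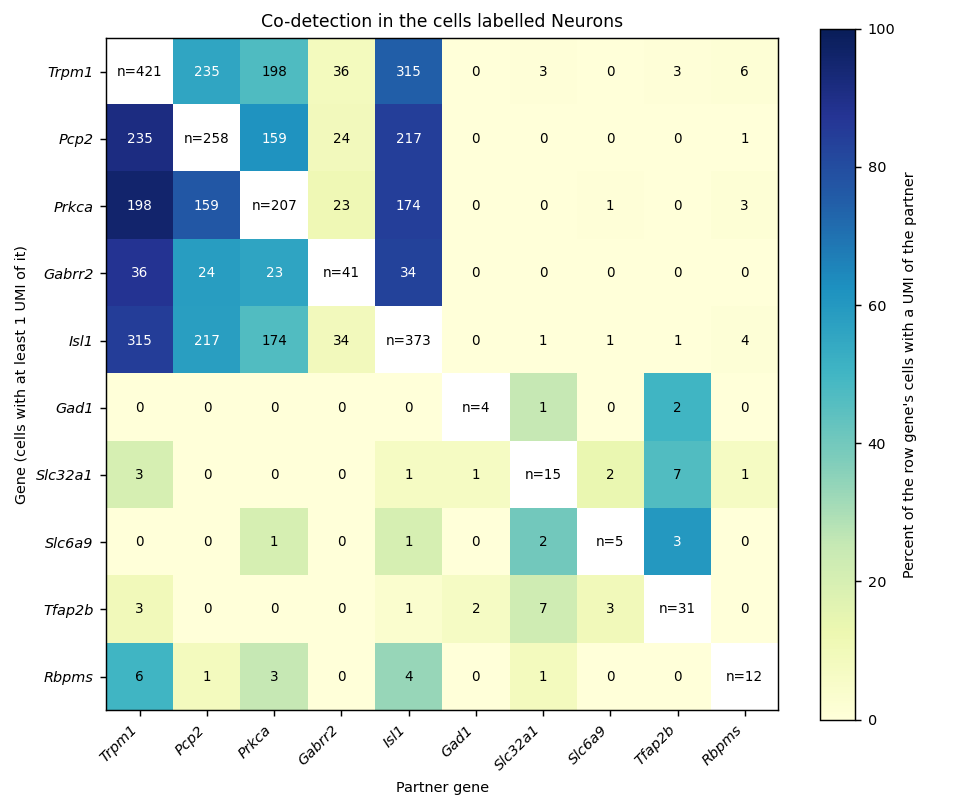
Co-detection of the 10 genes in the cells annotated as Neurons, where each field gives the number of cells with at least 1 UMI of both genes, the diagonal the number with the gene, and the color the percent of the row gene's cells that also had the partner. The block of Trpm1, Pcp2, Prkca, Gabrr2 and Isl1 at upper left shared few cells with the small block of amacrine genes.

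As a description over the 690 Neurons, the genes whose levels per cell (natural log of UMIs per 10000 plus 1) were most like those of each member were sought among 4798 genes found in at least 20 cells. For Trpm1 these included Isl1 (Pearson r = 0.55) and Car8 (0.53). For Pcp2 they were Pcp4 (0.56), Car8 (0.50) and Trpm1 (0.49), for Isl1 they were Trpm1 (0.55), Pcp2 (0.45) and Car8 (0.41), and for Prkca they were Trpm1 (0.50), Pcp2 (0.46) and Pcp4 (0.43). For Tfap2b they were Atp1b1 (0.49), Dner (0.42) and Rcan2 (0.40), for Slc32a1 Lamp5 (0.42), Atp1b1 (0.39) and Elavl3 (0.38), for Gad1 Spock3 (0.43), Tfap2a (0.32) and Dtnbp1 (0.32), for Slc6a9 Coro1c (0.32), Txnl4a (0.32) and Tfap2b (0.31), and for Rbpms Cdk14 (0.32), Sult4a1 (0.27) and Nefl (0.24). For Gabrr2 no gene went above 0.19 (Pde4a). The cells share libraries and differ in depth, and Slc32a1, Gad1, Slc6a9 and Rbpms were found in 15 or fewer cells.

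Counted as classes, 450 of the 690 Neurons (65.2%, 61.6 to 68.7) had a UMI of Trpm1, Pcp2, Prkca or Gabrr2 and none of the amacrine genes, 36 (5.22%, 3.79 to 7.14) had amacrine genes only, 5 (0.725%, 0.310 to 1.68) had both and 199 (28.8%, 25.6 to 32.3) had neither. Cells with neither had a median of 357 UMIs, against 678.5 in cells with bipolar genes only, and 127 of the 199 lay in cluster 16. All 5 cells with both were in cluster 21, with a median of 1953 UMIs. The deposited annotation calls every cell a singlet. Its doublet score (share of artificial neighbors) had a median of 0.258 in these 5 cells. The median was 0.289 in cells with bipolar genes only, 0.240 in cells with amacrine genes only and 0.223 in all of cluster 21. Whether the 5 cells are doublets was not tested. Drawn down to 500 UMIs, 69.6% of 392 cells had bipolar genes only, 6.12% amacrine genes only, 0.255% both and 24.0% neither. With 1 cell per barcode family, 69.9% of 515 cells had bipolar genes only, 3.88% amacrine genes only, 0.583% both and 25.6% neither.

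The share of Neurons with bipolar genes only was 71.2%, 45.5% and 82.0% in eNOS+/+ and 61.9%, 61.7% and 60.0% in eNOS-/- replicates, and the eNOS-/- values lay within the eNOS+/+ range. The difference of -5.01 percentage points (eNOS-/- minus eNOS+/+) had p = 0.7 by a two-sided exact permutation test, adjusted 0.7 over both shares tested. The share with amacrine genes only was 0%, 0% and 2.00% in eNOS+/+ and 5.15%, 7.02% and 0% in eNOS-/- replicates, a difference of 3.39 points (exact permutation p = 0.4, adjusted 0.7). With 3 replicates against 3 the smallest p of this test is 0.1.

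**Figure D5:**
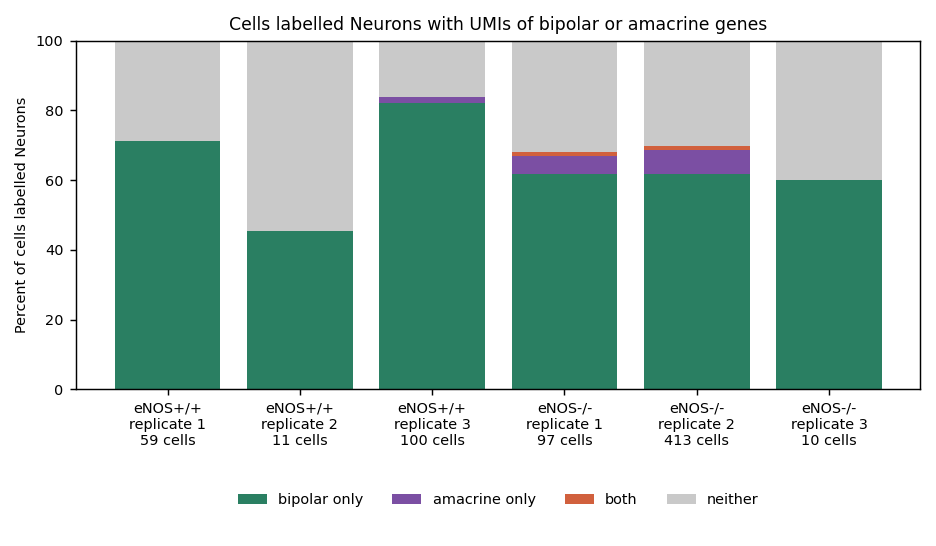
Percent of the cells annotated as Neurons in each replicate that had UMIs of bipolar genes only, amacrine genes only, both or neither, with the number of cells under each bar. Bipolar genes only made up 45.5% to 82.0% of the cells, and amacrine genes were found in 3 of the 6 replicates.

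None of the members tested was called different between genotypes. In the sums over Neurons, 982 genes passed the filter on low counts, and edgeR called 0 of them (0%; 41 at an unadjusted p under 0.05; DESeq2 called 0). Of the 10 members, 4 passed the filter. Their log2 fold changes (eNOS-/- over eNOS+/+) were 0.45 for Trpm1 (SE 0.47), -0.21 for Pcp2 (SE 0.45), -0.12 for Isl1 (SE 0.44) and 0.07 for Prkca (SE 0.48), all with an adjusted p of 1.00. Of the 12 genes of ON bipolar transduction, 8 were tested and 0 called (median log2 fold change -0.01, 4 of 8 above 0), and of the 20 genes of bipolar fate and type 13 were tested and 0 called (median -0.07, 4 of 13 above 0), beside a median of 0.00016 over all 982 genes. A shift in the mix of clusters and a change per cell cannot be told apart in these sums. In cells of cluster 7 alone, added after the data had been seen, Trpm1 had a log2 fold change of 0.39 (adjusted p = 0.998).

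In the sums over all ECs, where 2 of 9483 genes (0.0211%) were called, Rbpms was the only member that passed the filter. It was at 132, 210 and 196 CPM in eNOS+/+ and at 99.3, 70.5 and 246 CPM in eNOS-/- replicates, and the groups overlapped because eNOS-/- replicate 3 stood highest. Its log2 fold change was -0.46 (SE 0.37, adjusted p = 0.929 by edgeR). Without that replicate the value was -1.10 (adjusted p = 0.0519).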

How the data were processed

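Single cells of CD31-enriched retinal suspensions were measured by Drop-seq, which reads the 3′ ends of transcripts, in 3 replicates per genotype. Reads were processed by the authors with kb-python against GRCm38. Their filter took out cells below 100 genes or above 10% mitochondrial UMIs. They then clustered the integrated replicates in Seurat, named the clusters and dropped contaminants. The deposited values are UMI counts without normalization, and the deposited annotation gives each cell's replicate, cell type, cluster, percent of mitochondrial UMIs and doublet score, a fraction. Of its 17 columns, 9 were not used. Whether counting used strand is not given in the sources used here.

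UMIs were summed per cell type or cluster and replicate, and levels in CPM divide a gene's UMIs by the total of that sum and multiply by 1000000. They were not scaled by length, since a transcript gives 1 UMI at its 3′ end. The genotypes were compared with edgeR 4.0.16 (filterByExpr, TMM scaling, quasi-likelihood test, Benjamini-Hochberg limit 0.05) and, as an alternative, DESeq2 1.42.0. Shares of cells were compared by exact permutation tests over replicates. Intervals of shares are 95% Wilson intervals for counting error alone, and a count of 0 is taken to allow 3 UMIs. The edgeR model was also run on counts simulated from its fits to these data. Of 200 genes given a log2 change of 2, it recovered 142 in Neurons, with 4 false calls, and 179 in ECs, with 7 false calls. The software was R 4.3.3, Python 3.11.15 and scipy 1.17.1. Coordinates of genes come from GENCODE, matched by symbol, and promoters from RefSeq.

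The genes described are the 10 members, genes of the lists by cell class, and the 3 genes most like each member over Neurons, of which 1 is not reported here. Genes outside this rule are marked in the text. The members and lists were chosen with earlier results of these data known. Lists for rods, cones, glia, mural, immune and endothelial cells were used to check the Neurons. The 11 endothelial genes summed to 1023 CPM in Neurons and 9141 CPM in ECs. Of these sums, Pecam1, the gene of CD31, gave 642 CPM in Neurons and 1358 CPM in ECs. The replicate numbers did not pair the samples (correlations of deviations from the group mean of 0.03, -0.01 and 0.07 for numbers 1, 2 and 3 in Neurons). In ECs these correlations were 0.13, -0.07 and 0.11, and those between unlike numbers ran from -0.17 to 0.13. Chi-square per gene between 2 replicates of a genotype was 1.90 to 6.81, so their sums differed by more than counting error. This value cannot show whether the pools of retinas were separate, because the cells and the mix of clusters also differ between sums.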

Additional observations from a re-analysis of the deposited data

How the results depend on the processing

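Of the 6 replicates, 2 held under 10000 Neuron UMIs. In Neurons the counts of called genes were 0 with DESeq2, RLE size factors, 1 cell per barcode family, the replicate block and without the 2 replicates under 10000 Neuron UMIs, but 1 with no filter on low counts, with cells of at least 500 UMIs and in cluster 7 alone, and 0 to 3 when a replicate was left out (3 without eNOS+/+ replicate 3 or eNOS-/- replicate 2). In ECs, 2 genes were called with the replicate block, 84 with no filter, 1 with cells of at least 500 UMIs or 1 cell per barcode family, and 0 to 78 when a replicate was left out, with 78 without eNOS-/- replicate 3. No member was among these calls in Neurons, and the block changed no call of a member. In ECs with no filter, 84 of 19593 genes were called. Among them were 2 of the 10 members, both of which otherwise missed the filter and were higher in eNOS-/-. These were Trpm1 (log2 fold change 2.68, adjusted p = 1.71e-09 by edgeR) and Isl1 (3.67, adjusted p = 0.00205). Replicate eNOS-/- 2 alone held 293 UMIs of Trpm1 and 82 of Isl1, while the other 5 replicates held 1 to 14 and 0 to 6, and both genotypes overlapped. The cause of these shifts was not tested.

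The sign of small fold changes was not stable. When a replicate was left out, log2 fold changes ran from -0.40 to 0.19 for Pcp2, from -0.29 to 0.085 for Isl1 and from -0.20 to 0.56 for Prkca. Isl1 was also above 0, at 0.16 with no filter and 0.025 without the 2 small replicates, and Prkca was below 0, at -0.22 with cells of at least 500 UMIs, -0.11 in cluster 7 and -0.37 without the 2 small replicates. Trpm1 stayed above 0 and Rbpms in ECs below 0 in each alternative. The bipolar share differed by 0.895 points with at least 2 UMIs required, and left-out replicates gave -15.4 to 2.88 points for it and 1.91 to 5.42 for the amacrine share. Requiring 2 UMIs put 0% of cells in both classes and 42.0% in neither. Isl1 was at 3211 CPM with cells of at least 500 UMIs. Pooling all cells, in which eNOS-/- replicate 2 weighs most, raised Gad1 to 12.4, Tfap2b to 180 and Slc32a1 to 46.2 CPM, from means over replicates of 3.22, 73.7 and 11.97 CPM. Cluster 7 alone and leaving out the 2 small replicates were chosen after seeing the data.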
